A study of Homo sapiens with 4 samples.

Results

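The general transcription factors of RNA polymerase II are encoded here by 32 genes, of 20046 protein-coding genes in GENCODE 44. The list was set by gene symbol and holds *TBP*, 14 TBP-associated factor (*TAF*) genes, and the genes of TFIIA, TFIIB, TFIIE, TFIIF and TFIIH. They were examined in Flag ChIP-seq peak lists from HK1, an established nasopharyngeal carcinoma line, in which Flag-tagged FLI1 was overexpressed. FLI1 is an ETS-family transcription factor. Control cells received PBS and the others IFN-γ for 24 h, and both groups carried the Flag-FLI1 overexpression. Each condition had 1 ChIP library, so the treatment could not be tested against the spread between replicates. The antibody recognized Flag and therefore reports on the introduced protein only. The promoter that drove its expression is not given in the sources used here. Peak lists carry no expression values, and the labelled cell type was therefore not checked against markers.

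RNA polymerase II cannot recognize a promoter by itself. TFIID, built of TBP and the TAFs, binds the core promoter, TFIIA and TFIIB stabilize it and position the polymerase, and TFIIF, TFIIE and TFIIH join in turn. TFIIH carries the DNA translocase ERCC3, which opens the promoter, and the helicase ERCC2, and both act in nucleotide excision repair. It also has a kinase module of CDK7, cyclin H and MNAT1 that phosphorylates the tail of the polymerase. Promoters of such broadly used genes are often rich in CpG and hold sites for ETS factors, which share the core GGAA.

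The control list held 30819 peaks and the IFN-γ list 39654, with median summit pileups of 16 and 22 fragments. The pileup is the number of fragments stacked over the highest point of a peak, its summit, and was solved from the deposited values. The relative depth of the IFN-γ library, from the lowest background in each list, was 1.46. A gene had a promoter peak where a peak overlapped the 3 kb either side of any of its transcription start sites (TSSs).

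The following sequences carry the comparison of sites. Each is read 5′ to 3′ on the strand of the gene from the GRCh38 reference, centred on the ETS match nearest to a summit. In the first set the capitals mark the ETS octamer, CCGGAAGT or CAGGAAGT on either strand (read as ACTTCCGG or ACTTCCTG when reversed). These are the promoters with the strongest octamer-bearing peaks.
*GTF2H3*, plus strand, chr12:123633665-123633694: ctccgcaccccACTTCCGGcgcacttccgt
*GTF2H1*, plus strand, chr11:18322536-18322565: cccgccttgctACTTCCGGtcacgtgccct
*TAF12*, minus strand, chr1:28643075-28643104: ggggagcggtgCCGGAAGTagtcggggagg
*TAF13*, minus strand, chr1:109076007-109076036: cccgcgcgtcaCCGGAAGTgaggcggcgga
*TAF11*, minus strand, chr6:34888032-34888061: ctgcgcgacgaCAGGAAGTaagatcctggc
*ERCC3*, minus strand, chr2:127294140-127294169: tccggattgagCCGGAAGTccccccagagc
*TBP*, plus strand, the stronger peak, chr6:170553305-170553334: gacgttacgccACTTCCGGcttctcctgaa
*TBP*, plus strand, the peak at its own TSS, chr6:170554245-170554274: ctatggaaacaCAGGAAGTgacctatgctc

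The second set shows promoters without the octamer that had the hexamer, among them the strongest such promoter of TFIIA, TFIIF and the kinase module. Capitals mark the ETS hexamer CCGGAA on either strand (TTCCGG when reversed). *TAF1* is shown at the nearest match to each library's summit, since its summit lay at different places in the 2 libraries.
*TAF1*, plus strand, control, chrX:71366294-71366323: ctgttgttttatTTCCGGtctatgggaccc
*TAF1*, plus strand, IFN-γ, chrX:71366230-71366259: tctgttttgagcTTCCGGtagaggctggta
*TAF9*, minus strand, chr5:69369540-69369569: gccgcccgccccTTCCGGctcctccctgta
*GTF2A1*, minus strand, chr14:81221395-81221424: acgcgccagaggCCGGAAgccacgccacgt
*GTF2F1*, minus strand, chr19:6393144-6393173: cttgagcgcctcTTCCGGttaccttttccc
*CCNH*, minus strand, chr5:87412958-87412987: tcctagtccgctCCGGAAatgcaactgcgt

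The third set shows promoters where only the core GGAA (TTCC when reversed, in capitals) lay within 100 bp of the summit. They span strong and weak peaks.
*TAF10*, minus strand, control, chr11:6612210-6612239: cgcgagcGGAAgcGGAAgcggctctgttcg
*TAF7*, minus strand, chr5:141320766-141320795: cgcgacgtagcacTTCCgtttttgctgggt
*GTF2B*, minus strand, chr1:88891540-88891569: tcgccacattcgcTTCCtgctttcggtgtg
*GTF2E1*, plus strand, chr3:120742055-120742084: gtgcacgtttgacTTCCttaatgaacaaaa

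Most of the general transcription factor genes had a Flag-FLI1 promoter peak. In the control library 27 of the 32 genes had one (84.4%), beside 61.9% of all protein-coding genes. Under IFN-γ, 29 of 32 had one (90.6%), beside 59.7%. The same 27 genes had a peak in both libraries, beside 56% of protein-coding genes. *TAF6* and *GTF2F2* had a promoter peak in the IFN-γ library only, and *GTF2H2*, *ERCC2* and *MNAT1* had none in either. The IFN-γ list was the longer of the lists. When it was cut to the length of the control list, 26 of 32 genes had one under IFN-γ (81.25%), beside 53.1%. The control count stayed at 27, and *TAF4*, *TAF4B* and *TAF6* also had none under IFN-γ. The higher count under IFN-γ therefore depends on the length of its list. No test of the list was made, and no sampling error belongs to a count over named genes. A gene without a peak had none in a list whose weakest peaks stood at a −log10 q of 1.30 (control) and 1.32 (IFN-γ), which does not show that its promoter was unbound. The 27 genes had 35 promoter peaks in the control library, and the 29 genes had 38 in the IFN-γ library.

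**Figure D1:**
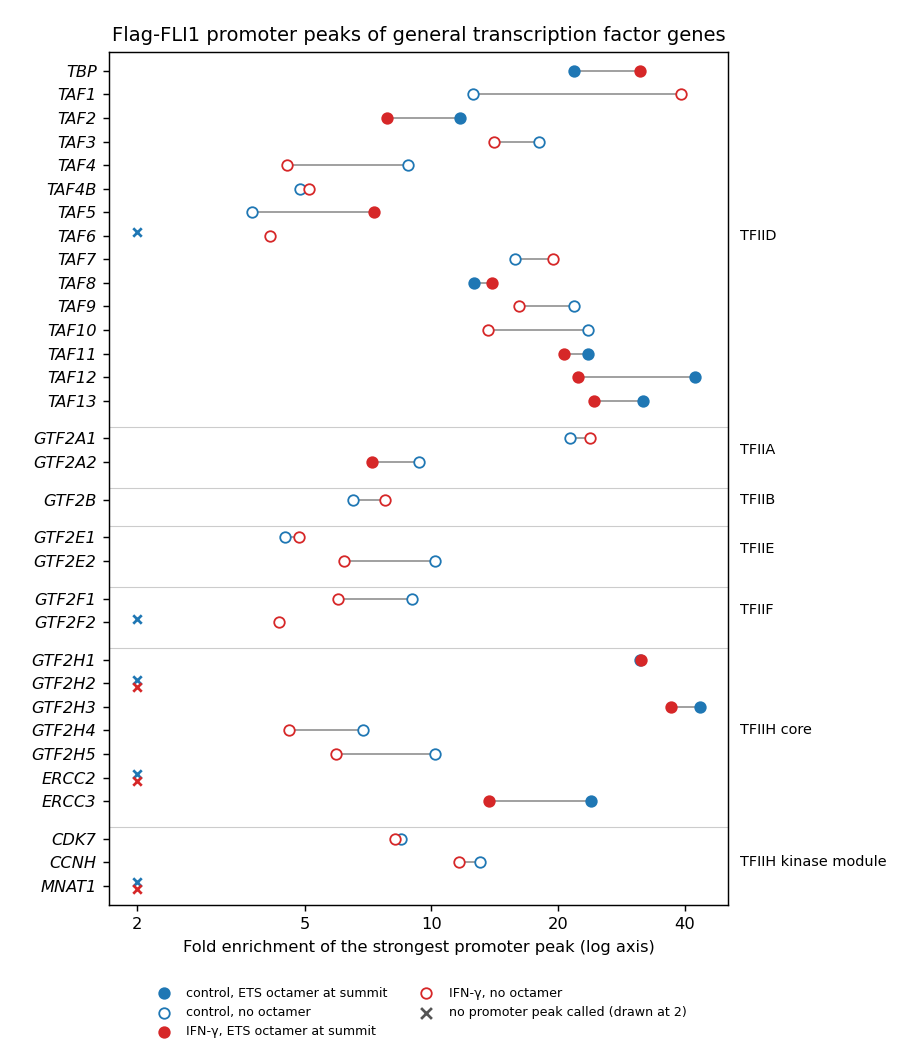
Fold enrichment of the strongest promoter peak of each of the 32 genes (log axis), in the control (blue) and IFN-γ (red) libraries, by complex. Filled points have the ETS octamer within 100 bp of the summit, grey lines join the 2 libraries, and crosses drawn at 2 mark genes without a promoter peak. The points of *GTF2H1* nearly coincide, at 31.4 and 31.5, and the widest gap to the right is that of *TAF1*, from 12.6 to 39.2.

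Promoter peaks of these genes spanned nearly the whole range of each list. Fold enrichment is the summit pileup plus 1 over the local background plus 1. Its median over the genes with a peak was 12.6 in the control library, where coding genes with a peak had 10.5, and 11.6 in the IFN-γ library, where they had 9.12. Ranked by −log10 p, the strongest peaks of 11 of the 27 genes fell in the top 10% of the control list, beside 24.8% of coding genes with a peak. In the IFN-γ list 12 of 29 did, beside 23%. The rank extended from 255 (*GTF2H3*) to 28899 (*TAF5*) in the control list and from 654 (*GTF2H1*) to 33498 (*TAF6*) in the IFN-γ list.

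Among the TFIID genes, 14 of 15 had a promoter peak in the control library and all 15 under IFN-γ. Their median fold enrichment was 16.9 (control) and 14.1 (IFN-γ). *TBP*, which encodes the TATA-binding protein, had 2 promoter peaks in each library. The stronger lay 1054 bp upstream of the MANE Select TSS, the start of the gene's reference transcript, in the control library, with a pileup of 50 fragments, a fold of 21.8, a −log10 p of 60.3 and rank 2080. In the IFN-γ library it lay 1094 bp upstream, with 86 fragments, a fold of 31.3, a −log10 p of 111 and rank 1367. Its summit was 8 and 32 bp from the TSS of the neighbouring *PSMB1*, a proteasome subunit gene, so this peak cannot be assigned to *TBP* alone. The peak at *TBP* itself, 50 and 45 bp upstream of the MANE TSS, reached 30 fragments (15.1-fold) in the control library and 56 fragments (18.5-fold) in the IFN-γ library.

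*TAF1* encodes the largest TFIID subunit, a scaffold with tandem bromodomains. Its control summit held 41 fragments over a background of 2.35, with a fold of 12.6 and rank 4293. Its IFN-γ summit held 111 fragments over a background of 1.86, with a fold of 39.2, a −log10 p of 153 and rank 716. By −log10 p it was the second of the 29 genes under IFN-γ, behind *GTF2H1*. The summits lay 27 and 101 bp upstream of the MANE TSS and 74 bp apart. Within 100 bp of the summit the hexamer CCGGAA was found 2 times in the control window and 3 times in the IFN-γ window, and the core GGAA 3 and 7 times.

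*TAF12*, *TAF13*, *TAF11*, *TAF9* and *TAF10* had the strongest control peaks in TFIID by −log10 p. *TAF12* had 86 fragments and a fold of 42.3 (−log10 p 131, rank 487) in the control library, and 75 fragments and a fold of 22.4 (−log10 p 83.4, rank 2338) under IFN-γ. *TAF13* had 84 fragments and a fold of 31.8 (−log10 p 110, rank 714), and 101 fragments and a fold of 24.4 (−log10 p 112, rank 1348). *TAF10* had 78 fragments and a fold of 23.6 (−log10 p 88.7, rank 1035), and 80 fragments and a fold of 13.6 (rank 3313). For these 3 genes the fold was lower in the IFN-γ list, and the local background at the summit was higher there, at 2.40 against 1.06 for *TAF12*, 3.19 against 1.68 for *TAF13* and 4.96 against 2.35 for *TAF10*. *TAF11* had 62 fragments (23.6-fold, −log10 p 73.9, rank 1453) and 93 fragments (20.7-fold, −log10 p 95.9, rank 1824). *TAF9* had 58 and 85 fragments (21.8- and 16.1-fold). Another *TAF11* peak, of 49 and 77 fragments, lay 13 and 2 bp from the TSS of the neighbouring *ANKS1A*. A further *TAF12* peak lay at an alternative TSS, 5229 bp from the MANE TSS in the control list, with pileups of 22 and 40 fragments.

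Promoter peaks of *TAF7*, *TAF3*, *TAF8* and *TAF2* lay lower in the control list. *TAF7*, a regulator of TAF1 acetyltransferase activity, had 57 fragments in the control library and 100 under IFN-γ, and *TAF3*, which carries a PHD finger that reads methylated histone H3, had 36 and 38. *TAF2* had 31 fragments (11.7-fold, −log10 p 28.5, rank 5938) and 43 fragments (7.85-fold, −log10 p 27.2, rank 10329). *TAF8* had a stronger peak of 37 fragments (12.6-fold, −log10 p 34.05, rank 4695) and 43 fragments (13.9-fold, −log10 p 40.6, rank 6533). It lay 1770 and 1725 bp upstream of the MANE TSS, where the nearest TSS was that of the cyclin gene *CCND3* (46 and 91 bp). The peak at *TAF8* itself had 18 and 35 fragments.

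The weakest TFIID promoter peaks were those of *TAF4*, *TAF4B*, *TAF5* and *TAF6*. *TAF4* and its tissue-restricted paralogue *TAF4B* encode scaffold subunits. *TAF4* stood at rank 11027 in the control list (19 fragments, 8.80-fold) and at rank 33371 in the IFN-γ list (12 fragments, 4.53-fold, −log10 p 7.005). *TAF4B* had 9 fragments in the control library (4.87-fold, −log10 p 6.74, rank 24844) and 12 under IFN-γ (5.13-fold, −log10 p 7.99, rank 30786). *TAF5*, a WD-repeat subunit, had 9 fragments in the control library (3.74-fold, −log10 p 4.98, rank 28899) and 21 under IFN-γ (7.31-fold, −log10 p 15.2, rank 18619), with summits 823 bp apart. *TAF6* was called in the IFN-γ library alone, with 14 fragments, a fold of 4.13, a −log10 p of 6.88 and a summit 23 bp upstream of the MANE TSS. Its nearest control peak was at the TSS of *MBLAC1*, 6.80 kb from any *TAF6* TSS. Each of these 4 genes had 14 fragments or fewer in at least 1 library.

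The factors that bridge TFIID and the polymerase had promoter peaks of middling strength, with 1 exception. *GTF2A1*, the large TFIIA subunit, had 49 fragments (21.4-fold, rank 2164) in the control library and 69 (23.9-fold, rank 2474) in the IFN-γ library. *GTF2A2*, the small subunit, had 24 fragments (9.35-fold, −log10 p 20.3, rank 8866) and 28 fragments (7.22-fold, −log10 p 18.3, rank 15590). *GTF2B*, the TFIIB gene, had 23 fragments in the control library (6.52-fold, −log10 p 14.6, rank 12670) and 24 under IFN-γ (7.76-fold). All 4 summits of the latter pair of genes fell in 5′ UTR exons, within 105 bp of the MANE TSS.

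For TFIIE, *GTF2E1* had 14 fragments (4.48-fold, −log10 p 7.51, rank 23928) in the control library and 20 (4.85-fold, −log10 p 10.1, rank 25927) in the IFN-γ library, at a summit nearer to the TSS of *RABL3* (432 and 430 bp) than to its own (564 and 562 bp). *GTF2E2*, the other subunit, had 20 and 22 fragments (10.2- and 6.20-fold). For TFIIF, *GTF2F1* had 26 and 22 fragments at summits 10 and 5 bp inside the gene. *GTF2F2*, which encodes the small TFIIF subunit, had no promoter peak in the control library. In the IFN-γ library its strongest promoter peak had 28 fragments over a background of 5.66 (4.35-fold, −log10 p 11.5, rank 23632). That peak lay in intron 4, 86.0 kb downstream of the MANE TSS and 178 bp from an alternative TSS, and with 1 TSS per gene *GTF2F2* had no promoter peak in either library.

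By −log10 p, TFIIH held the strongest promoter peak of the listed genes in each library, and it also held the genes without one in either. In the core, 5 of 7 genes had a promoter peak in each library. *GTF2H3*, the p34 subunit, had 117 fragments in the control library (43.5-fold, −log10 p 168, rank 255) and 105 under IFN-γ (37.1-fold, −log10 p 142, rank 843). *GTF2H1*, the p62 subunit, had 82 fragments in the control library (31.4-fold, −log10 p 107, rank 753) and 131 under IFN-γ (31.5-fold, −log10 p 159, rank 654). The *GTF2H3* summit was 0 and 2 bp from the TSS of *EIF2B1*, a translation initiation factor subunit gene on the other strand, and 143 and 145 bp upstream of the *GTF2H3* MANE TSS. *ERCC3*, the XPB translocase, had 55 fragments (23.9-fold, −log10 p 68.3, rank 1663) and 66 fragments (13.7-fold, −log10 p 56.7, rank 4177), with summits 0 and 2 bp from one of its own TSSs.

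Of the TFIIH core genes with a promoter peak, *GTF2H5* and *GTF2H4* had the weakest. *GTF2H5* had 20 and 26 fragments (10.2- and 5.95-fold) in its first intron. The stronger *GTF2H4* peak of the control library (22 fragments, 6.88-fold, −log10 p 14.9, rank 12523) lay 3 bp from the TSS of *VARS2*, downstream of *GTF2H4*, while in the IFN-γ library the stronger peak was at *GTF2H4* itself (28 fragments, 4.60-fold, rank 22498). In the kinase module, 2 of 3 genes had a promoter peak. *CCNH*, the cyclin H gene, had 47 fragments (13.04-fold, rank 3607) and 89 fragments (11.6-fold, rank 3315), 23 and 29 bp upstream of its MANE TSS. *CDK7* had 25 and 39 fragments (8.46- and 8.17-fold). Both sites were called in each library.

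The genes without a promoter peak in either library were *GTF2H2*, *ERCC2* and *MNAT1*. *GTF2H2* lies in a duplicated region of chromosome 5. Of 18 stretches of 150 bases, the read length, taken every 50 bp across 500 bp either side of its MANE TSS, 18 occurred more than once in GRCh38, in up to 3 copies. The same count was 0 of 18 for *TAF6*, *GTF2F2*, *ERCC2* and *MNAT1*. The copy *GTF2H2C* had 1 promoter peak in each library (22 fragments, 11.2-fold in the control library, and 18 fragments, 6.31-fold in the IFN-γ library), and the copy *GTF2H2B* had 0. How reads were shared among the copies was not tested, and the value of *GTF2H2* is uncertain for that reason. *ERCC2*, the XPD helicase, had its nearest peak 31.3 kb from any of its TSSs in the control library and 22.2 kb away in the IFN-γ library. For *MNAT1* the nearest peak to a TSS was at *SIX4*, 10.5 and 11.3 kb away.

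**Figure D2:**
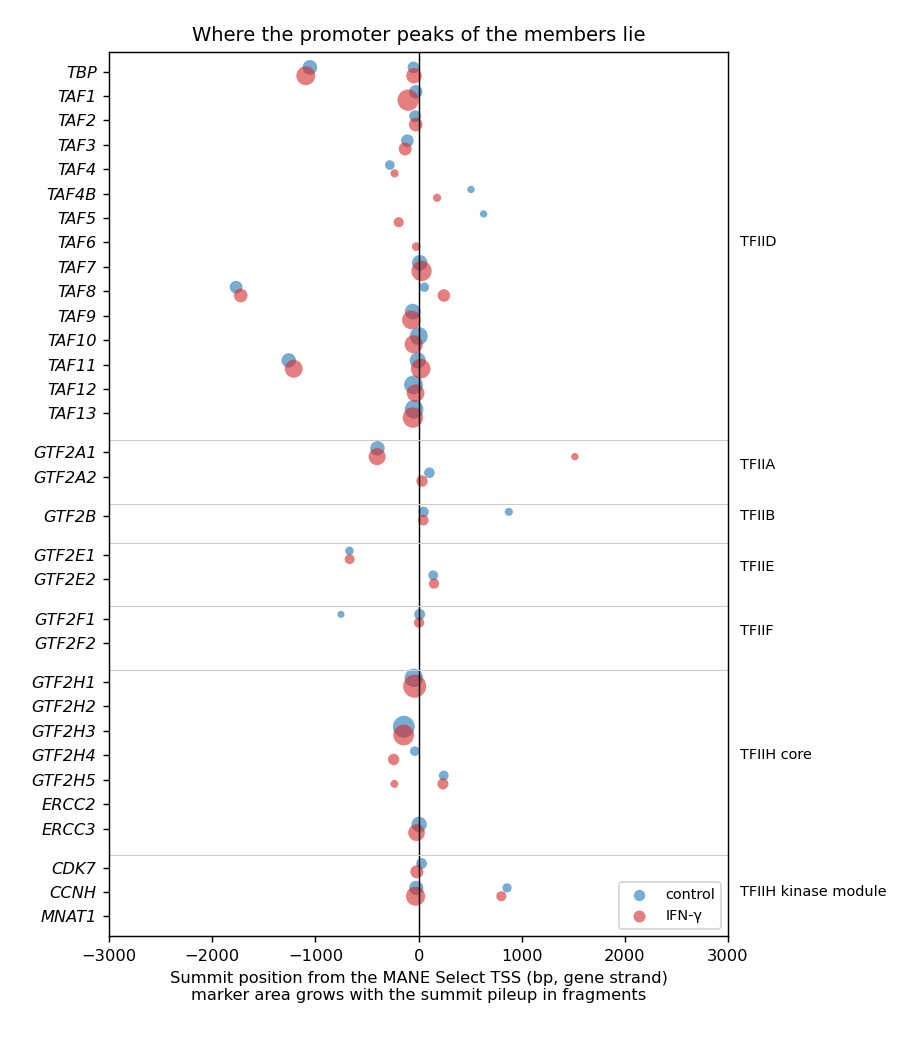
Position of the promoter summits of each gene relative to its MANE Select TSS, in bp along the gene, for the control (blue) and IFN-γ (red) libraries. The area of a marker grows with the summit pileup. Most markers sit at the TSS, the upstream markers of *TBP*, *TAF8* and *TAF11* lie more than 1 kb away, and the alternative-TSS peaks of *TAF12* and *GTF2F2* and the *GTF2H4* peaks at *VARS2* are outside the plotted 3 kb.

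Summits of these genes lay close to the TSS. In the control library 19 of 27 strongest summits were within 100 bp of a TSS of the gene, beside 47.4% of coding genes with a peak. In the IFN-γ library 19 of 29 were, beside 42.6%. The median distance was 35 and 46 bp, where over coding genes it was 114 and 147 bp. From the MANE TSS alone, 14 of 27 and 15 of 29 lay within 100 bp, beside 32.6% and 28.7% of coding genes with a peak. By the same GENCODE models, 15 control summits were upstream of the MANE transcript, 8 in its 5′ UTR, 2 in an intron, 1 in a coding exon (*TAF4B*) and 1 past the 3′ end (*GTF2H4*). The nearest TSS belonged to the gene itself for 21 of 27 summits in the control library and 25 of 29 in the IFN-γ library. Measured from the MANE TSS, 6 of the 32 genes had the TSS of a coding gene on the opposite strand within 1 kb, beside 10% of coding genes. They were *TAF6* with *CNPY4* (276 bp), *TAF9* with *RAD17* (298 bp), *GTF2E1* with *RABL3* (228 bp), *GTF2H1* with *HPS5* (427 bp), *GTF2H3* with *EIF2B1* (143 bp) and *GTF2H5* with *SERAC1* (88 bp). A peak there belongs to both promoters, and which gene the protein acts on was not measured. The count leaves out *TBP* and *TAF11*, though a peak of each lay beside the TSS of *PSMB1* or *ANKS1A*.

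ETS sequence was present at the summits of all genes with a peak, in different forms. The octamer lay within 100 bp of 9 of 27 control summits (33.3%), beside 16.9% of coding genes with a peak, and of 11 of 29 IFN-γ summits (37.9%), beside 19.7%. The genes were *TBP*, *TAF2*, *TAF8*, *TAF11*, *TAF12*, *TAF13*, *GTF2H1*, *GTF2H3* and *ERCC3* in both libraries, and also *TAF5* and *GTF2A2* under IFN-γ, whose summits there lay 823 and 72 bp from the control summits. In flanking windows of the same width, taken for all coding genes with a peak, the octamer was found in 1.48% and 1.44%. For *TBP* and *TAF8* the summit counted here was the stronger one, beside *PSMB1* and *CCND3*. CCGGAAGT was present at 6 control and 7 IFN-γ summits, beside 12.1% and 12.9% of coding genes, and CAGGAAGT at 3 and 4, beside 5.37% and 7.26%.

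The hexamer CCGGAA, which overlaps the octamer CCGGAAGT, was found at 13 of 27 control summits (48.1%, beside 40.2% of coding genes) and 14 of 29 IFN-γ summits (48.3%, beside 41.1%). The core GGAA was at 27 of 27 and 29 of 29, where 94.8% and 97.4% of coding genes had it, so its presence separates few genes. The tandem GGAAGGAA was at 0 of 27 and 0 of 29 strongest promoter summits, beside 5.36% and 7.51%. All motifs were searched on both strands, and a match describes these letters and is not a measured binding site.

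**Figure D3:**
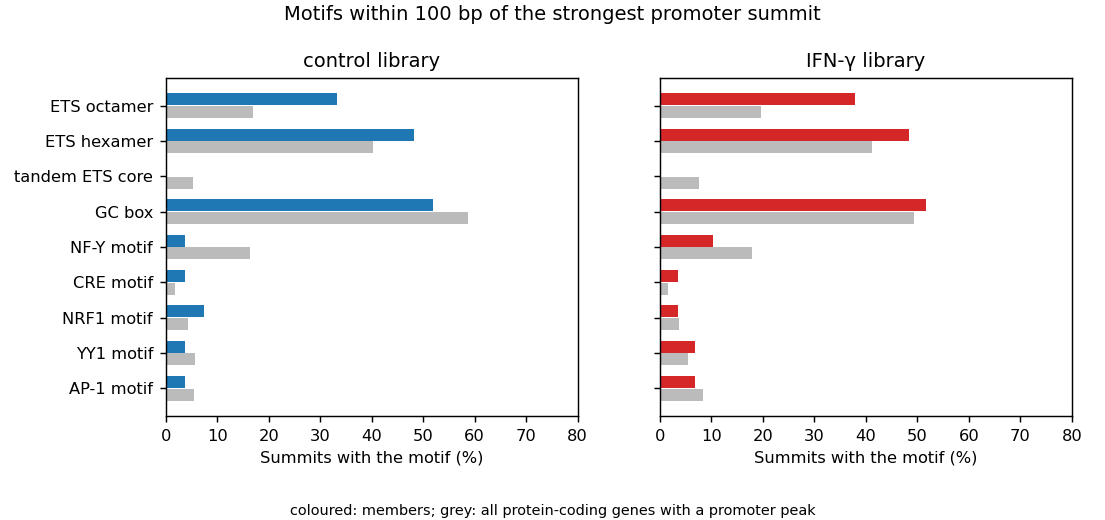
Share of strongest promoter summits with each motif within 100 bp, in percent, for the general transcription factor genes (coloured) and for all protein-coding genes with a promoter peak (grey), in each library. The coloured bar is above the grey one for the ETS octamer, at 33.3% against 16.9% and 37.9% against 19.7%, and there is no coloured bar for the tandem ETS core.

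Octamer-bearing promoters had the higher median fold within the list. In the control library the 9 genes with the octamer had a median fold of 23.9 and pileups of 31 to 117 fragments, and the 18 without it a median fold of 9.78 and pileups of 9 to 78. All 9 lay in the top 19.3% of the list, at ranks 255 to 5938. In the IFN-γ library the medians were 20.7 for 11 genes and 6.98 for 18, and the octamer-bearing genes ranked from 654 to 18619, down to the top 47.0%. Of them 6 of 11 were in the top 10% of that list, and of the others 6 of 18. Among coding genes with a peak the counts were 1097 of 2355 with the octamer and 1661 of 9612 without. In the control library the top 10% held 7 of the 9 and 4 of the 18, beside 1102 of 2102 and 1976 of 10305 coding genes. Over all coding genes with a peak the same split gave median folds of 17.5 and 9.58 (control) and 15.0 and 8.12 (IFN-γ). *TAF1*, whose IFN-γ peak was 39.2-fold, had the hexamer and no octamer.

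Other promoter motifs were found at shares like those of coding genes or at few genes. The GC box GGGCGG was at 14 of 27 control summits (51.9%, beside 58.8%). The NF-Y motif CCAAT was at 1 control summit, that of *TAF11* (3.70%, beside 16.4%), and at 3 in the IFN-γ library (10.3%, beside 17.9%). The cyclic AMP response element TGACGTCA was at *TAF10* alone in each library, beside 1.78% and 1.63% of coding genes. The AP-1 motif TGANTCA was at *GTF2H1* in both libraries and also at *GTF2F2* under IFN-γ, beside 5.55% and 8.31%. The YY1 motif ANATGGCG was at *GTF2B* in both libraries and at *TAF6* under IFN-γ, beside 5.75% and 5.37%. The NRF1 motif was at *TAF12* in both libraries and at *TAF7* in the control library, beside 4.39% and 3.63%. The letters TATAAA of the TATA box were at *GTF2B* in both libraries and at *GTF2F2* under IFN-γ, beside 1.77% and 2.62%.

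**Figure D4:**
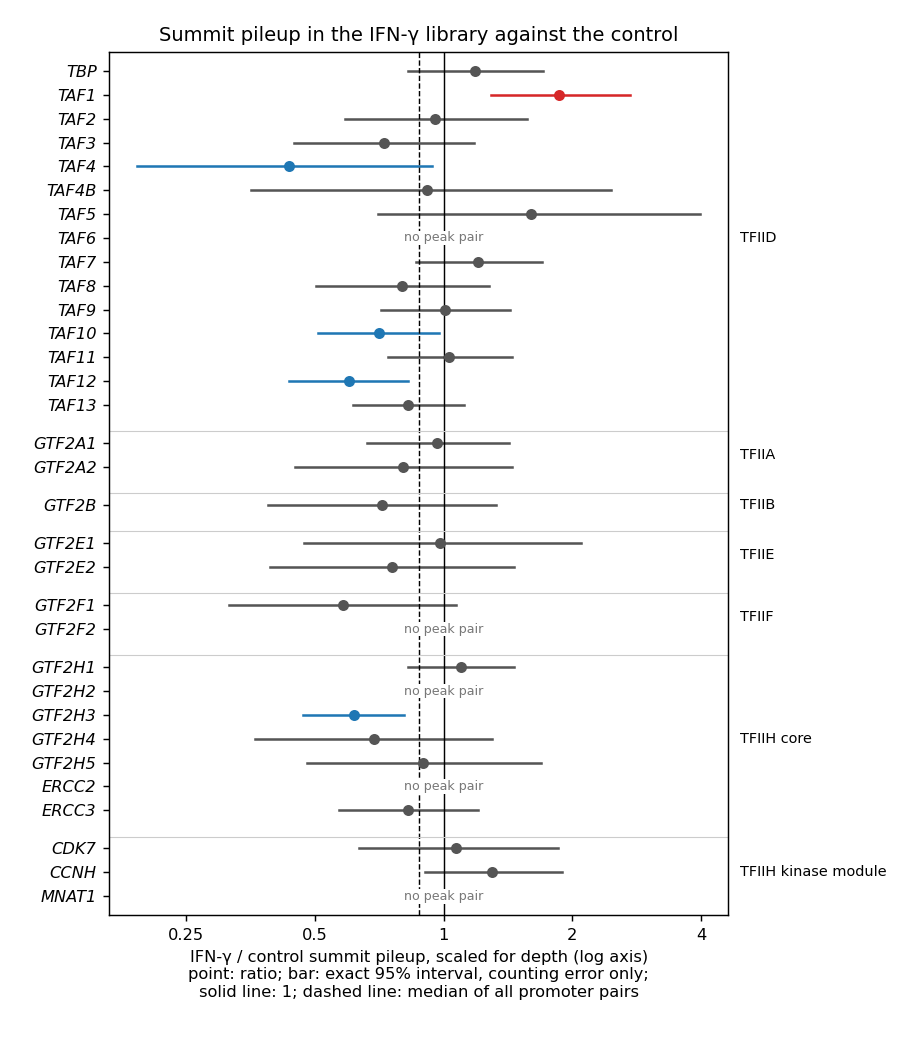
Ratio of the IFN-γ to the control summit pileup for the 27 genes with overlapping promoter peaks, scaled for relative depth (log axis). Points are ratios and bars exact 95% intervals of counting error. The dashed line is the median of all promoter pairs, 0.874. The bar of *TAF1* lies above 1 (red), and those of *TAF4*, *TAF10*, *TAF12* and *GTF2H3* lie below 1 (blue).

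The libraries were compared at the strongest overlapping pair of promoter peaks of 27 genes. For *GTF2H4* that pair, of 22 and 22 fragments, lay at *VARS2* and was not the strongest peak under IFN-γ. The ratio of pileups, divided by the relative depth, had a median of 0.893, where all 14601 overlapping promoter pairs had 0.874 and 10993 coding genes 0.856. Intervals are exact Clopper-Pearson 95% intervals and cover counting error only, so they leave out the variation between cultures and libraries. The ratio was above 1 for 9 genes and below 1 for 18. Of coding genes, 64.7% had a ratio below that of *GTF2E1* (0.981) and 67.4% below that of *TAF9* (1.007). Most coding genes thus also lay below 1, and the count is no trait of the list. Of the 27, 0 were past 2-fold higher, beside 2.41% of coding genes, and 1 was past 2-fold lower, beside 5.94%. The interval lay above 1 for 1 gene, beside 6.07%, and below 1 for 4, beside 14.1%. These shares are of the size found over coding genes.

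The highest ratio was that of *TAF1*, 1.86 (1.29 to 2.73), from 41 fragments in the control library and 111 under IFN-γ. It was above both 1 and the median of all pairs. The ratio of *CCNH*, 1.30 (0.903 to 1.89), had an interval above that median but not above 1. As a ratio of fold enrichments it was 0.893, with a background of 2.68 at the control summit and 6.73 at the IFN-γ summit. The share of coding genes with an interval above the median was 10.5%, and 2 of the 27 genes were among them. *TAF5* had a ratio of 1.60 with an interval of 0.704 to 3.97, which 9 control fragments cannot narrow. Its summits lay 823 bp apart, so that ratio also compares different places.

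The lowest ratio was that of *TAF4*, 0.434 (0.192 to 0.941), from 19 and 12 fragments. *TAF12* had 0.599 (0.434 to 0.826), from 86 and 75 fragments, and *GTF2H3* had 0.616 (0.469 to 0.809), from 117 and 105. The intervals of the latter pair were below the median of all pairs as well as below 1, as were those of 6.76% of coding genes. *TAF10* had 0.704 (0.509 to 0.975). For the other genes the interval contained 1, and a change between the libraries was not detectable at this depth. At the peak over its own TSS *TBP* had a ratio of 1.28 (0.809 to 2.07), and at the *PSMB1* side 1.181 (0.824 to 1.71).

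Outside the promoters, 4 control and 5 IFN-γ peaks fell inside the genes, and 3 of each overlapped between the libraries. The shared sites were in *GTF2F2* and *MNAT1*, which are among the genes without a control promoter peak. The sites in *GTF2F2* intron 4 and *MNAT1* intron 6 are tandem repeats and differ in sequence from the promoters shown. The site in *MNAT1* intron 1 carries the octamer, as some of those promoters do. Capitals mark every GGAA or TTCC unit, and in the last line the octamer in its reversed form ACTTCCTG. All are the reference sequence around a summit on the plus strand.
*GTF2F2* intron 4, control, chr13:45168752-45168812: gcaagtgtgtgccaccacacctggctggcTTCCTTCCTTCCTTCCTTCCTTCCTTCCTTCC
*MNAT1* intron 6, control, chr14:60834919-60834979: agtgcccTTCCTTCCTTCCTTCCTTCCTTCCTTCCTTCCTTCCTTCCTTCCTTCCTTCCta
*MNAT1* intron 1, IFN-γ, chr14:60757833-60757893: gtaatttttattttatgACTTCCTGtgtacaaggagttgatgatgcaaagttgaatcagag

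The *GTF2F2* site in intron 4 had 43 fragments in the control library (15.4-fold, rank 3404) and 66 under IFN-γ (19.1-fold, rank 3152). Within 100 bp of the summit it held 17 GGAA cores and 13 overlapping GGAAGGAA in each library. The site in *MNAT1* intron 6 had 11 and 17 fragments (5.84- and 7.10-fold), 13 cores and 12 tandem matches. These repeat sites had ratios of 1.05 (0.707 to 1.59) and 1.06 (0.469 to 2.51). Among the promoter peaks, counting the weaker ones too, the tandem lay within 100 bp of 1 summit, that of a second *GTF2F1* peak in the control list with 8 fragments. How uniquely reads map to such repeats was not tested.

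The site in *MNAT1* intron 1 had an octamer and 1 AP-1 motif TGANTCA and no tandem repeat. It had 17 fragments in the control library (8.60-fold, rank 12100) and 48 under IFN-γ (10.01-fold, rank 7668). Its ratio was 1.94 (1.10 to 3.60). The median ratio over the 9945 overlapping pairs away from promoters was 1.24, so this site is to be read against that value, which its interval contains. The unshared sites were weak, at 12 fragments in exon 5 of *GTF2E1* in the control library, 19 in intron 1 of *GTF2H1* and 20 in intron 6 of *GTF2F2* in the IFN-γ library.

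Genes of the machinery that works with these factors are given for comparison, as counts and shares. Of all coding genes 61.9% (control) and 59.7% (IFN-γ) had a promoter peak, and of the 32 listed genes 84.4% and 90.6%. Of 12 genes of RNA polymerase II subunits, 10 had a promoter peak in the control library (83.3%) and 9 under IFN-γ (75%). Of 30 genes of Mediator, the coactivator that links activators to the polymerase, 26 had one in each (86.7%). Of 16 genes of RNA polymerase I and III factors, all 16 had one in both. The paralogues of the listed genes, several of which are germline forms, differed in count, with 4 of 9 in each library (44.4%). Among them *TBPL1* had 239 fragments in the control library (93.3-fold, rank 21) and 345 under IFN-γ (97.4-fold, rank 16). Both peaks were stronger than those of any listed gene. *TBPL2* had a peak in the control library only and *TAF6L* in the IFN-γ library only. There was no peak at *TAF1L*, *TAF7L*, *TAF9B* or *GTF2A1L*. Median ratios of the pairs were 0.913, 0.932 and 0.832 for the first 3 lists, and 0.566 over the 3 pairs of the paralogues.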

How the data were processed

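Per the study's methods, the authors trimmed paired-end reads of 150 bases (cutadapt 1.18), mapped them on GRCh38 (Bowtie2 2.3.4.1), dropped duplicates (Picard) and ran MACS2 2.1.2 with a stated p cutoff of 0.01. The deposited lists stop higher, at a lowest −log10 p of 3.52 (control) and 3.46 (IFN-γ) and a lowest −log10 q of 1.30 and 1.32. Use of the input libraries in calling is not given in the sources used here, and the inputs were not analysed here. The deposited lists give for each peak a fold enrichment, −log10 of the p-value and q-value, and a display score, which was not used.

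Pileups and backgrounds were solved from the deposited fold and −log10 p, and whole pileups were found for 100% of peaks within a relative error of 1e-04. At these depths a median summit rests on 16 or 22 fragments. The 2 ChIP libraries were grouped by their labelled treatment. Genes and TSSs were from GENCODE 44. The strongest promoter peak was that with the highest −log10 p. All 32 genes are accounted for. The rule for full values named genes lacking a peak, the 5 strongest and 5 weakest per library, those past 2-fold and those with the octamer. Printed promoter sequences are limited to 30 bases and leave out chromosome 8. Members and lists were chosen with earlier results of these data known. Pileup recovery, promoter hits, peak overlaps, the octamer search and the ratio intervals were tested on simulated data, and the other steps were not. Tools were Python 3.11.15, pandas 2.3.3, numpy 2.4.6, pysam 0.24.0, scipy 1.17.1 and, for figures, matplotlib 3.10.9.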

Additional observations from a re-analysis of the deposited data

How the results depend on the processing

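No paired analysis was possible because there was a single ChIP library per treatment. Counts of genes with a promoter peak were 24 to 27 (control) and 26 to 29 (IFN-γ) over the other promoter windows, TSS sets and cutoffs tried. Assigning every peak to its nearest TSS, with no promoter limit, gave 26 and 28 genes, but not the same genes. *MNAT1* then counted in both libraries and *GTF2F2* in the control. *GTF2H3* and *GTF2E1* counted in neither, and *TAF2* not in the control. The octamer count was 27 (control) and 29 (IFN-γ) when the core GGAA replaced the octamer, and 7 in the IFN-γ library with CCGGAAGT alone, both by construction. Counting any promoter peak of a gene left it at 9 and 11, and CCGGAA in its place gave 13 and 14, alternatives chosen after seeing the data. Genes with a ratio above 1 numbered 9, and 14 when ratios were scaled to the median of all promoter pairs and 22 with no scaling. Both alternatives shift the ratios of all coding genes alike, and the shares over coding genes were not counted for them. Genes past 2-fold higher numbered 0, and were 1 with scaling to that median, 2 with no scaling and 1 with the ratio of fold enrichments. Genes past 2-fold lower numbered 1, and 0 with no scaling and with the ratio of fold enrichments. The *TAF10* ratio of 0.704 turned to 1.03 with no scaling, and as ratios of folds *TAF1* was 3.12, *GTF2H3* 0.854 and *CCNH* 0.893, the last on the other side of 1 from its pileup ratio of 1.30. The depth of single summits limits the ratios, and without replicates the spread between cultures is unknown.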
